A study of Mus musculus with 7 samples.

Results

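Heat shock proteins and J-domain chaperones were followed in follicular dendritic cells (FDCs) of mice with and without the neurotrophin receptor gene Ngfr. All genes of the deposited table were taken whose symbol begins with Hsp90, with Hspa, Hspb, Hspd, Hspe or Hsph and a number, or with Dnaja, Dnajb or Dnajc and a number. The rule found 65 of the 21176 genes in the table. They fall into 8 classes: 3 Hsp90, 10 Hsp70 and 3 Hsp110 genes, Hsp60 with its partner Hsp10, 7 small heat shock proteins, and 4 DnaJA, 11 DnaJB and 25 DnaJC proteins.

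RNA was sequenced from 7 samples of sorted FDCs, 4 from wild-type mice (WT) and 3 from mice with a knockout of Ngfr (Ngfr KO). Every animal was male, between 8 and 12 weeks old and had not been immunized. Cells came from popliteal lymph nodes, and nodes of several animals went into each sample, so p-values measure the spread between such pools. The labels give neither the strain nor the Ngfr allele, nor whether the gene was removed in all cells.

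Chaperones bind unfolded stretches of other proteins and let them fold, cross membranes or be degraded. Hsp70 proteins do so in cycles of ATP hydrolysis, which J-domain (DnaJ) proteins start and nucleotide exchange factors such as the Hsp110 proteins end. Hsp90 proteins act on clients that are nearly folded, Hsp60 encloses its clients in a chamber in mitochondria, and small heat shock proteins hold clients without ATP. Cytosolic stress induces several of these genes through heat shock factor 1, and unfolded proteins in the endoplasmic reticulum (ER) induce others through the unfolded protein response. FDCs are stromal cells that display antigen to B cells and secrete the chemokine Cxcl13.

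Values are the deposited TMM-scaled signal, in which reads were divided by 1 factor per sample, and a value of 1 stood for 230 to 295 reads. Libraries held 17244925 to 18873542 reads in WT and 20741770 to 21538400 in Ngfr KO. The Ngfr KO libraries were thus all deeper than those of WT, so depth and genotype cannot be told apart. The targeted gene itself, Ngfr, had 97, 181, 298 and 298 reads across the WT libraries and 84, 104 and 46 across those of Ngfr KO. A value per gene does not show which exons the remaining reads cover. Of 10 FDC marker genes, 9 were called higher in Ngfr KO. Their summed value was 1741 to 4930 in WT, lowest in replicate 1, and 7577 to 10109 in Ngfr KO. All 9 endothelial markers tested were called lower, with sums between 110 and 153 in WT and between 26.5 and 48.1 in Ngfr KO. Among markers of reticular stroma 3 of 5 and among myeloid markers 2 of 2 were called higher, and B cell and T cell markers gave 1 call, Ms4a1, in 8 tested. The part of these differences in the results below was not tested. In such bulk samples fewer cells of a type and less RNA per cell cannot be told apart.

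Most heat shock and J-domain genes showed differences between genotypes that were small against the spread of the samples. Of the 65 genes, 48 reached a value of 1 in 3 or more samples and were tested with limma on log2(value + 1), with Benjamini-Hochberg adjustment over all 8326 genes tested. Genes with an adjusted p under 0.05 were called. Of the 48 genes, 5 were called higher in Ngfr KO, namely Dnajb11, Hspa5, Hspd1, Dnajc30 and Dnajc7, against 18.3% of all genes tested. Called lower were 2, Dnajc5 and Hspb11, against 15.8% of all genes tested. Together 14.6% of the tested chaperone genes were called, and 34.2% of all genes tested. The median log2 difference was 0.02 for the 48 genes and 0.02 for all genes tested, with a range of -0.63 to 1.02 over the 48. The median size of the difference, without its sign, was 0.28 among them and 0.36 among all genes tested. A 95% interval that lay within a log2 difference of 1 in both directions was found for 40 of the 48 genes (83.3%) and for 73.3% of all genes tested.

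The 2 genotypes did not overlap for 12 of the 48 genes, and for 40.9% of all genes tested. In 9 of these every Ngfr KO sample lay above every WT sample, as in 22.6% of all genes tested. Beside the 5 called genes these were Hsp90b1, Hspa9, Hspa14 and Dnaja3. In the other 3, Dnajc5, Hspb11 and Dnajc24, every Ngfr KO sample lay below, as for 18.3% of all genes tested. edgeR's quasi-likelihood test on the recovered reads tested 63 of the 65 genes and called 7, against 15.2% of all genes it tested. It called 5 higher, the 4 genes Dnajb11, Hspa5, Hspd1 and Dnajc30 and also Hsp90b1, against 8.67% of all genes it tested. It called 2 lower, against 6.55%, namely Hspa12a and Hspa12b, whose values were too low for the limma filter. The limma count rested in part on single libraries: it was 3 without WT replicate 1, without Ngfr KO replicate 1 or without Ngfr KO replicate 2. Hspa5 and Dnajb11 were called under all 17 alternatives.

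By class, limma called 1 of 7 tested Hsp70 genes higher (Hspa5), 1 of the Hsp60 and Hsp10 pair higher (Hspd1), 1 of 8 DnaJB genes higher (Dnajb11), 2 of 20 DnaJC genes higher and 1 lower, and 1 of 2 small heat shock proteins lower. It called none of the 3 Hsp90, 3 Hsp110 and 3 DnaJA genes. In those 3 classes the unadjusted p was under 0.05 for 1, 0 and 1 genes, and edgeR called 1, 0 and 0. The median log2 difference was 0.33 for Hsp70, -0.25 for Hsp110, 0.28 for DnaJA, -0.04 for DnaJB and -0.02 for DnaJC. The genes are described below by where their proteins work, a grouping made after the values were seen. The ER lumen (8 tested genes) and the mitochondrion (8) each had 2 genes called higher and none lower, with medians of 0.28 and 0.31. That is 25.0% called in each, below the 34.2% of all genes tested.

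**Figure D1:**
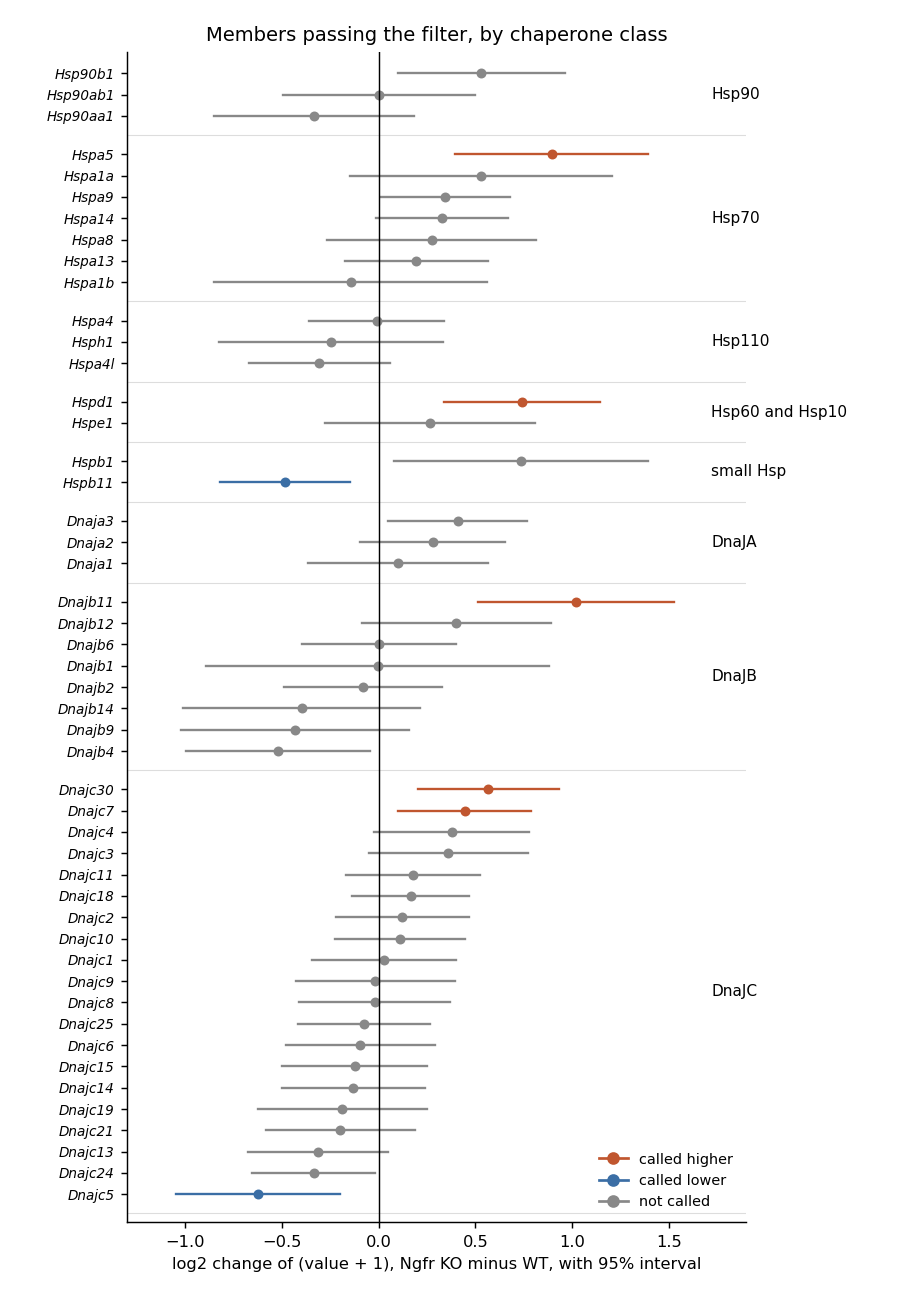
Log2 difference (Ngfr KO minus WT, log2(value + 1) scale, x axis) of the 48 tested genes by chaperone class, each point a gene and each bar its 95% interval from limma. Dnajb11 at 1.02 and Hspa5 at 0.89 stand farthest to the right and Dnajc5 at -0.63 farthest to the left, and most intervals cross 0.

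In the ER lumen, the Hsp70 protein Hspa5 (BiP) and its co-chaperone Dnajb11 were 1.83-fold and 2.14-fold higher in Ngfr KO than in WT, and the other genes of this compartment were not called by limma. Hspa5 (chromosome 2, 34771970 to 34777547, plus strand, GRCm38, GENCODE M21) binds proteins entering the ER and holds the sensors of the unfolded protein response inactive. Its values were 32.6, 42.3, 57.2 and 55.8 in WT replicates 1 to 4 and 80.6, 86.9 and 91.0 in Ngfr KO replicates 1 to 3. All Ngfr KO samples lay close together and above the highest WT sample, while WT spread widely with replicate 1 lowest. The means were 47.0 ± 11.7 (SD, n = 4) and 86.2 ± 5.2 (SD, n = 3), a 1.83-fold difference, and the log2 difference was 0.89 (SE 0.23, limma adjusted p = 0.0116).

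Dnajb11 (chromosome 16, 22857845 to 22879634, plus strand) is a soluble ER protein that hands unfolded substrates to Hspa5. It had values of 3.05, 4.16, 6.22 and 7.35 in the WT replicates and of 10.3, 12.7 and 10.5 in the Ngfr KO replicates. The groups were again apart, with WT replicate 1 lowest. From a mean of 5.20 ± 1.95 (SD, n = 4) it was 2.14-fold higher in Ngfr KO, at 11.1 ± 1.4 (SD, n = 3), with a log2 difference of 1.02 (SE 0.23, limma adjusted p = 0.00659). It was the only one of the 48 genes whose log2 difference reached 1, which 699 of all genes tested did.

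Hsp90b1, the Hsp90 protein of the ER, stood at 53.7, 53.4, 67.0 and 61.0 in WT and at 79.2, 79.4 and 97.5 in Ngfr KO. The samples of the genotypes did not overlap, but its log2 difference of 0.53 (SE 0.20, 95% interval 0.10 to 0.96) missed the limma threshold with an adjusted p of 0.0560. edgeR gave a log2 difference of 0.60 with an adjusted p of 0.0439, and Hsp90b1 was called in 5 of the 17 alternatives. Of its exonic bases 15.7% overlap other genes. Dnajc3, an inhibitor of the eIF2α kinases that also works as a co-chaperone of Hspa5, had WT values of 11.4, 13.1, 19.1 and 15.1 and Ngfr KO values of 18.5, 19.2 and 18.7. WT replicate 3 reached the Ngfr KO level, and the log2 difference of 0.36 was not called (limma adjusted p = 0.155).

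The remaining J-domain proteins of the ER did not share the difference of Hspa5. Dnajb9, a target of the unfolded protein response that delivers misfolded proteins for degradation, had a negative log2 difference of -0.43 (limma adjusted p = 0.228). Its values were 4.19, 5.14, 10.5 and 5.44 in WT and 2.93, 3.85 and 6.21 in Ngfr KO, so that the groups overlapped and WT replicate 3 stood highest. Dnajc10, a reductase of the ER, showed a log2 difference of 0.11 (limma adjusted p = 0.602), with samples from 6.12 to 7.96 in WT and from 7.05 to 8.23 in Ngfr KO. Hspa13, a microsomal Hsp70, and Dnajc1, whose J domain faces the lumen, had log2 differences of 0.20 and 0.03 (limma adjusted p = 0.391 and 0.910), with a sign for Dnajc1 that changed between alternatives. Summed over all 8 ER genes, the value was 119.6, 132.1, 172.8 and 162.1 in WT and 207.1, 217.4 and 240.9 in Ngfr KO. These samples did not overlap, and Hspa5 and Hsp90b1 made up most of the sum in each. WT replicate 1, lowest in the sum, was also lowest in the FDC marker sum, and without it Hspa5 and Dnajb11 were still called.

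**Figure D2:**
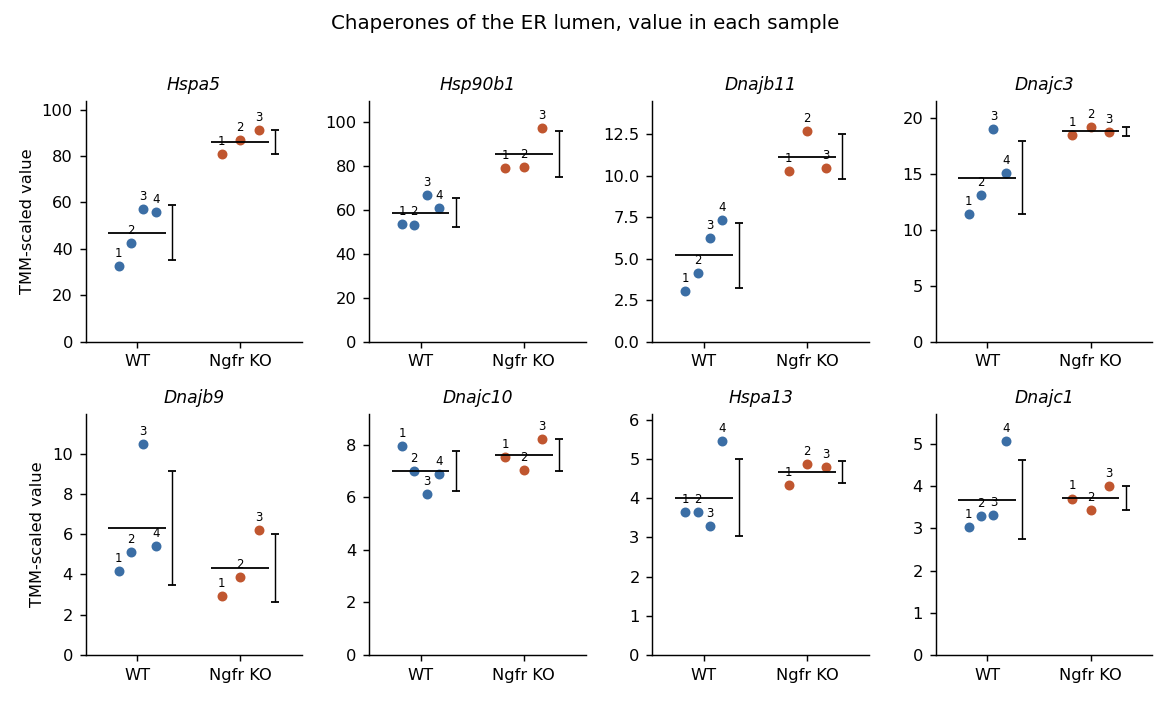
TMM-scaled value (y axis, from 0) of the 8 ER genes in each WT and Ngfr KO sample, numbered by replicate, with the mean as a line and the SD as a bar. Hspa5, Dnajb11 and Hsp90b1 show Ngfr KO samples all above WT, while Dnajb9, Dnajc10, Hspa13 and Dnajc1 overlap.

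The promoters of these genes were searched for the ER stress element, CCAAT and CCACG with 9 bases of any kind between them on either strand, a sequence known from promoters of unfolded protein response genes. RefSeq windows of 300 bases (GRCm38.p6), 250 before and 50 after the gene start, were at hand for 53 of the 65 genes. The element was found in 3 of them, Hspa5, Hsp90b1 and Dnajc3 (5.66%), against 0.137% of the 27025 genes in the table of windows. Since it was chosen as an element known from such promoters, this contrast was partly fixed beforehand. Shown are the Hspa5 site and the stretches before the starts of Hsp90b1 and Dnajc3, with the element in capitals, and the stretch before Dnajb11, which rose most and whose window held no match. They are chr2:34772019-34772048 (plus strand), chr10:86705510-86705694 (minus strand), chr14:118937682-118937931 (plus strand) and chr16:22857670-22857844 (plus strand).
Hspa5: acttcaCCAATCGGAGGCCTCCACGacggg
Hsp90b1: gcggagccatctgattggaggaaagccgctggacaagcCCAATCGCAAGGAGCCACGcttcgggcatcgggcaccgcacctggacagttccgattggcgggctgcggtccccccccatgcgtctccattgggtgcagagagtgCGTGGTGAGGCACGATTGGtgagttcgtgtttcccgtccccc
Dnajc3: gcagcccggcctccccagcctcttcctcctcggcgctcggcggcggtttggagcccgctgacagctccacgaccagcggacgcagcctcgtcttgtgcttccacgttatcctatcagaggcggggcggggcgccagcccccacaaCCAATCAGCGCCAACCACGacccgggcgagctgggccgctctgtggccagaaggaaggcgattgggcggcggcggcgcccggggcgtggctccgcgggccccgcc
Dnajb11: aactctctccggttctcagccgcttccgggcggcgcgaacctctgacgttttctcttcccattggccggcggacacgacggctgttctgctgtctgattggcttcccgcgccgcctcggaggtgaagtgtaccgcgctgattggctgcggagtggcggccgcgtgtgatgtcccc

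The element began 65 bases before the RefSeq start of Hspa5 and 105 bases before that of Dnajc3. Hsp90b1 held it at 212 bases and, on the opposite strand, at 107 bases. The Hspa5 site lies before the RefSeq start but within the first exon that GENCODE M21 gives. Of the 3 genes with the element, 1 was called by limma, and the groups did not overlap in 2. A match describes the letters of a window, and the missing match of Dnajb11 says only that these letters do not occur in its window.

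In mitochondria, the chaperonin Hspd1 (Hsp60) and the J-domain protein Dnajc30 were called higher in Ngfr KO, and the import motor's Hsp70 and its co-chaperone Dnaja3 were higher in every Ngfr KO sample without passing the test. Hspd1 encloses imported proteins in a folding chamber. It had values of 5.49, 5.99, 6.06 and 6.57 in WT and 7.72, 12.5 and 12.7 in Ngfr KO. The WT samples lay close together and below every Ngfr KO sample, and among the latter replicate 1 stood well below the others. The log2 difference was 0.74 (SE 0.19, limma adjusted p = 0.0106), and means of 6.03 ± 0.44 (SD, n = 4) and 10.96 ± 2.8 (SD, n = 3) gave a 1.82-fold difference. Without Ngfr KO replicate 2 the adjusted p was 0.0507, and with the trend of gene length and GC content removed it was 0.0517. Of its exonic stretches of 50 bases, 42.1% also occur in other genes, mostly processed pseudogenes, so that its count depends on how such reads were assigned.

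Hspe1 (Hsp10), the lid of the Hsp60 chamber, had values of 13.97, 20.5, 23.2 and 27.7 in WT and 19.8, 23.3 and 34.5 in Ngfr KO. Its groups overlapped, and the log2 difference of 0.27 was not called (limma adjusted p = 0.424). Hspe1 and Hspd1 lie head to head on chromosome 1, from 55088132 to 55091307 on the plus strand and from 55077835 to 55088243 on the minus strand. Their stretches of 250 bases before the RefSeq start shared 215 bases and with them 1 cluster of heat shock elements. The elements were searched as GAA and TTC, in either order, with 2 bases of any kind between them. For Hspd1 this concerns 1 RefSeq start, and the window of its other start held no match. The cluster lies before that RefSeq start of Hspd1 but within an untranslated region that GENCODE M21 gives. The site is shown as read for Hspd1, chr1:55088053-55088082 on the minus strand, with the overlapping matches in capitals.
Hspd1 and Hspe1: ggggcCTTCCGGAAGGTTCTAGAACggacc

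Dnajc30, a protein of the inner mitochondrial membrane linked to the respiratory chain, stood at 1.14, 1.82, 1.73 and 2.28 in WT and at 2.81, 2.89 and 3.39 in Ngfr KO. The samples of the genotypes did not overlap, and the log2 difference was 0.57 (SE 0.17, limma adjusted p = 0.0222). That call was lost without WT replicate 1 (adjusted p = 0.0612) and without any 1 of the Ngfr KO replicates (0.0504 to 0.0653), and it was also lost with no filter (0.0625) and with the trend of length and GC content removed (0.153). Its exons share 26.2% of their bases with Bud23 on the opposite strand, and reads from that stretch cannot be assigned without strand.

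Hspa9, the mitochondrial Hsp70 that pulls proteins through the inner membrane, had values of 6.37, 6.30, 5.44 and 6.30 in WT and 7.67, 9.19 and 7.27 in Ngfr KO. Every Ngfr KO sample was higher, with a log2 difference of 0.34 that was not called (limma adjusted p = 0.0985). For its J-domain partner Dnaja3 the values were 1.11, 0.846, 1.26 and 1.62 in WT and 1.66, 2.42 and 1.70 in Ngfr KO. The groups touched without overlapping, and the log2 difference of 0.41 was not called either (limma adjusted p = 0.0726). The J-domain proteins of the import motor, Dnajc15 and Dnajc19, had log2 differences of -0.12 and -0.19, and Dnajc11, a protein of the cristae junctions, of 0.18. None of these 3 was called, their groups overlapped, and the sign for Dnajc15 changed with the trend of length and GC content removed. The 8 mitochondrial genes together gave sums between 46.8 and 58.7 in WT and between 55.1 and 79.9 in Ngfr KO, with overlap.

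**Figure D3:**
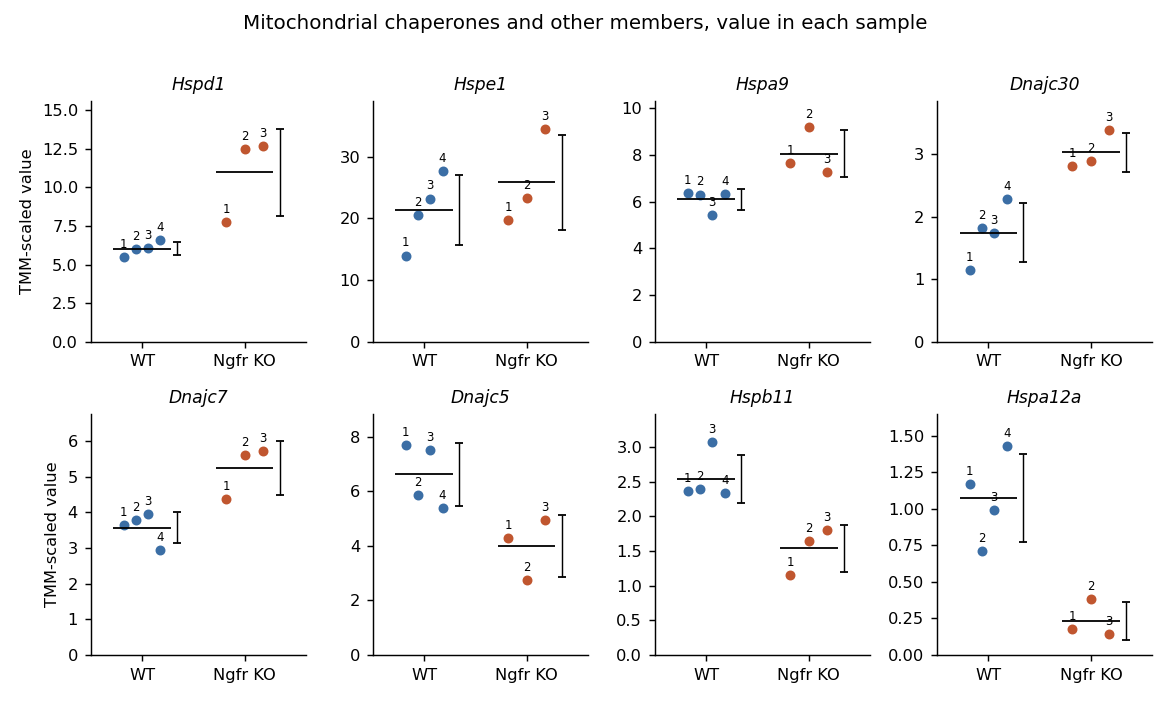
TMM-scaled value (y axis, from 0) in each sample, numbered by replicate, with the mean as a line and the SD as a bar, for 4 mitochondrial genes (upper row) and for Dnajc7, Dnajc5, Hspb11 and Hspa12a (lower row). Hspd1 ranges from 7.72 to 12.7 in Ngfr KO against 5.49 to 6.57 in WT, and Hspe1 is the only gene shown whose groups overlap.

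Outside these compartments 3 further genes were called, each close to the threshold. Dnajc5 (cysteine string protein), a J-domain protein anchored on secretory vesicles, fell from 7.70, 5.87, 7.52 and 5.40 in WT to 4.29, 2.74 and 4.94 in Ngfr KO. The groups were apart by little, the lowest WT sample being 5.40 and the highest Ngfr KO sample 4.94. The log2 difference was -0.63 (SE 0.19, limma adjusted p = 0.0273), with an adjusted p of 0.0726 in edgeR, 0.0784 with no filter and 0.142 with the length and GC trend removed. It was 0.0546 to 0.133 without WT replicate 1, WT replicate 3, Ngfr KO replicate 1 or Ngfr KO replicate 2.

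Hspb11 carries the name of a small heat shock protein but encodes a subunit of the intraflagellar transport complex of cilia. Its values were 2.36, 2.40, 3.06 and 2.33 in WT and 1.16, 1.65 and 1.81 in Ngfr KO. All Ngfr KO samples were lower, and the log2 difference was -0.48 (SE 0.15, limma adjusted p = 0.0308). The call was lost in edgeR (0.0786), with no filter (0.0669) and without WT replicate 1, 2 or 3 or Ngfr KO replicate 1 or 2 (0.0514 to 0.153).

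Dnajc7, which binds both Hsp70 and Hsp90 and passes clients between them, had values of 3.63, 3.78, 3.95 and 2.93 in WT and 4.37, 5.62 and 5.73 in Ngfr KO. The samples did not overlap. Its log2 difference of 0.45 (SE 0.16) had a limma adjusted p of 0.0459 and passed in 5 of the 16 alternatives that tested it. Leaving out any 1 library except WT replicate 3 ended the call, with adjusted p of 0.0536 to 0.141.

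The heat-inducible genes of the cytosol and nucleus varied from sample to sample within each genotype and gave no call between genotypes. They were taken as Hspa1a, Hspa1b, Hsph1, Hsp90aa1, Dnajb1, Hspb1 and Dnaja1. Their median log2 difference was -0.01, 1 of the 7 had an unadjusted p under 0.05 in limma, and edgeR called 0. The inducible Hsp70 genes Hspa1a and Hspa1b are near copies, sharing 66.3% and 62.3% of their 50-base exonic stretches with other genes, mainly each other, and were therefore also added up. The sum was 23.0, 20.1, 18.7 and 44.0 in WT and 15.3, 40.3 and 25.3 in Ngfr KO. WT replicate 4 and Ngfr KO replicate 2 stood apart as high, and the genotypes overlapped over almost their whole range. Taken singly, Hspa1a had a log2 difference of 0.53 (limma adjusted p = 0.201) and Hspa1b, whose sign changed between alternatives, of -0.15 (0.746).

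Dnajb1, the main J-domain partner of inducible Hsp70, showed the widest swing. It read 6.60, 7.49, 11.1 and 14.4 in WT and 3.51, 18.8 and 11.7 in Ngfr KO. The lowest and the highest value of all 7 samples were both in Ngfr KO, and the log2 difference was -0.01 (limma adjusted p = 0.994), with a sign that changed between alternatives. Hsph1, the inducible Hsp110, had values of 2.76, 1.75, 2.00 and 4.68 in WT and 1.36, 3.48 and 1.73 in Ngfr KO. Again WT replicate 4 and Ngfr KO replicate 2 were the highest of their genotypes, and the difference was not called (-0.25, limma adjusted p = 0.486).

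Hspb1 (Hsp25), a small heat shock protein that binds unfolded proteins and actin, had values of 5.99, 5.65, 8.34 and 15.5 in WT and 11.3, 20.7 and 12.5 in Ngfr KO. WT replicate 4 lay within the Ngfr KO range and the other WT samples below it. The log2 difference was 0.73 (95% interval 0.08 to 1.39, limma adjusted p = 0.0763). Without WT replicate 4 it was 1.01 with an adjusted p of 0.0109, and with the length and GC trend removed it was 0.89 (0.0359). Hsp90aa1, the inducible cytosolic Hsp90, had values of 42.1, 41.5, 63.9 and 68.3 in WT and 34.8, 40.9 and 50.2 in Ngfr KO. Its groups overlapped, and the log2 difference of -0.33 was not called (limma adjusted p = 0.290). Dnaja1, a J-domain partner of Hspa8, had a log2 difference of 0.10 (limma adjusted p = 0.739). Hspb1 and Hsp90aa1 share 50.1% and 47.5% of their exonic 50-base stretches with other genes, mainly pseudogenes, so that their counts depend on how such reads were assigned.

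The same samples were extreme across these genes. WT replicate 4 was the highest of the WT samples for 6 of the 7 genes, and WT replicate 2 was the lowest for 5. Ngfr KO replicate 1 was the lowest of its genotype for all 7, and Ngfr KO replicate 2 the highest for 5. Of the 8 ER and the 8 mitochondrial genes, Ngfr KO replicate 1 was also lowest for 6 and 4, and WT replicate 4 highest for 3 and 4. Ngfr KO replicate 2 was highest for 3 and 2 of them, and WT replicate 2 lowest for 1 and 1. Shares over all genes were not counted, and the near copies Hspa1a and Hspa1b count as 2 of the 7 genes. The spread within genotypes, as a pooled SD on the log2(value + 1) scale, had a median of 0.542 over the 7 genes, 0.222 over the ER genes, 0.208 over the mitochondrial genes and 0.226 over all genes tested. The median gene of the 7 lay at the 97th percentile of that spread. Immediate early genes, which cell isolation can induce, were also uneven: their summed value was 513.9, 458.1, 1010 and 579.7 in WT and 373.3, 723.8 and 427.5 in Ngfr KO. Ngfr KO replicate 2 was the highest of its genotype in that sum and replicate 1 the lowest, whereas among WT replicate 3 was highest. Of 12 such genes 1 was called higher and 3 lower, and their part in the spread was not tested.

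**Figure D4:**
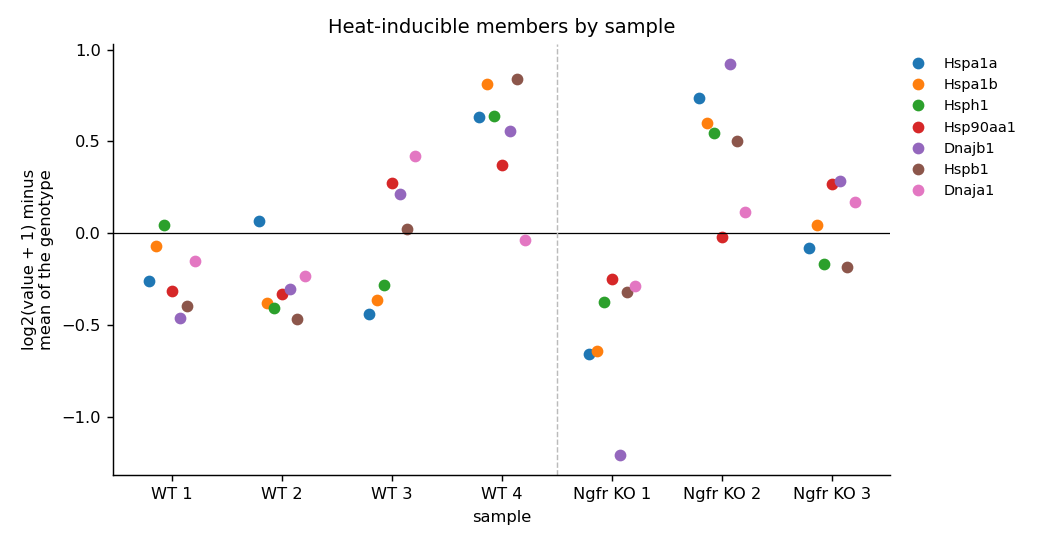
Log2(value + 1) of 7 heat-inducible genes in each sample minus the mean of its genotype (y axis), 1 point per gene and sample, with samples on the x axis and a dashed line between WT and Ngfr KO. Points of WT replicate 4 and Ngfr KO replicate 2 lie mostly above 0 and those of Ngfr KO replicate 1 below it.

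Heat shock elements were searched in all promoter windows in the same 2 forms, GAA before TTC and TTC before GAA, each of which reads alike on both strands. The form with GAA first occurred in 12 of the 53 genes with a window (22.6%) and in 8.98% of all 27025 genes with one. The form with TTC first occurred in 6 of the 53 (11.3%) and in 9.53% of all. Since the element was chosen as one known from heat shock genes, these contrasts were partly fixed beforehand. The near copies Hspa1a and Hspa1b counted as separate genes, as did Hspd1 and Hspe1 with their shared cluster. Among the heat-inducible genes, Hspb1 held the form with GAA first 118 and 98 bases before the start, and Dnaja1 125 bases before 1 of its starts. In Hsph1 this form lay after the start, as it did in Hspb8. The form with TTC first lay both after and before the start of Hsph1, in the latter case by 55 or 34 bases depending on the RefSeq start. The windows of Dnajb1 held neither form, and Hsp90aa1 had no window. Hspa1a and Hspa1b each held the form with GAA first, 105 bases before the start, and their stretches of 250 bases before the start differed at 3 bases. The stretch of Hspa1b is given as the gene with the larger share of the reads, chr17:34959239-34959488 on the minus strand, with the element in capitals.
Hspa1b: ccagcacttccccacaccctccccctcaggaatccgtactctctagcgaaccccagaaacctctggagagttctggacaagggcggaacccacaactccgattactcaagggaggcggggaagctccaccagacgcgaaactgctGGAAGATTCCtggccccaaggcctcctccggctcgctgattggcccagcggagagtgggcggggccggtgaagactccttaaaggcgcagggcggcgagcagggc

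The abundant constitutive chaperones of the cytosol, Hspa8 and Hsp90ab1, were not called. Hspa8, the main Hsp70 of the cytosol, had values of 86.3, 81.8, 104 and 103 in WT and 94.4, 164 and 93.1 in Ngfr KO. Ngfr KO replicate 2 alone lay above the WT range, and the log2 difference was 0.27 (limma adjusted p = 0.405). Hsp90ab1, the constitutive Hsp90, had a log2 difference of -0.00 with a 95% interval of -0.50 to 0.50 (limma adjusted p = 0.999) and samples between 59.4 and 92.6 in WT and between 66.9 and 84.9 in Ngfr KO. Its sign changed between alternatives. All 65 genes together took between 0.750% and 1.05% of the reads in WT and between 0.813% and 1.07% in Ngfr KO, which overlap.

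Levels of different genes were compared as value per kb of exon length. In WT, Hsp90ab1 was the most abundant at 25.6 per kb, before Hspa8 at 21.8, Hsp90b1 at 14.6, Hspe1 at 14.5, Hsp90aa1 at 13.7 and Hspa5 at 11.1. In Ngfr KO the order of the means was Hspa8 at 27.3, Hsp90ab1 at 25.2, Hsp90b1 at 21.2 and Hspa5 at 20.4. The first place of Hspa8 came from Ngfr KO replicate 2, with a value of 164 against 94.4 and 93.1 in replicates 1 and 3. In replicates 1 and 3 Hsp90ab1 came first per kb. Of the exonic 50-base stretches of Hspa8, 39.4% also occur in other genes. Hspa5 thus stood at rank 6 in WT and rank 4 in Ngfr KO. Dnajb11, at 1.61 per kb in WT and 3.44 in Ngfr KO, stayed well below its Hsp70 in both genotypes. The order of neighbouring genes was not tested.

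The other cytosolic and nuclear genes gave no further call. The exchange factors Hspa4 and Hspa4l had log2 differences of -0.01 and -0.31 (limma adjusted p = 0.963 and 0.169), with overlapping samples. Dnaja2, a co-chaperone of Hspa8, had a difference of 0.28 (0.223) and Dnajb6, which blocks aggregation, of 0.00 (0.995). The sign for Hspa4 and Dnajb6 changed between alternatives. Dnajb4 had values of 6.09, 5.58, 10.3 and 6.69 in WT and 3.73, 6.33 and 3.98 in Ngfr KO, with 1 Ngfr KO sample inside the WT range. Its log2 difference of -0.52 was not called (limma adjusted p = 0.0824), but it was without Ngfr KO replicate 2 (0.0452) and with quantile normalization (0.0465). Dnajc24, a factor of diphthamide synthesis, had a difference of -0.34 without overlap of the groups (limma adjusted p = 0.0903), and Hspa14, an Hsp70 bound to ribosomes, one of 0.33 (0.121).

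Of the endocytic J-domain proteins, Dnajc6 (auxilin), which uncoats clathrin vesicles with Hspa8, had a log2 difference of -0.09 and Dnajc13, which acts on endosomes, of -0.32 (limma adjusted p = 0.698 and 0.154), and the sign for Dnajc6 changed between alternatives. In the list of 4 clathrin and auxilin-family genes, Cltc, the clathrin heavy chain, was called lower (-0.63, limma adjusted p = 0.0373). Dnajc2, a J-domain protein of the ribosome, had a difference of 0.12 (0.563). The splicing protein Dnajc8 and the histone chaperone Dnajc9 both had a difference of -0.02, and edgeR gave 0.06 for Dnajc8. The ER membrane proteins Dnajb12 and Dnajb14 had differences of 0.40 and -0.40 (0.177 and 0.287), both with overlapping samples. The last 6 tested genes, Dnajb2, Dnajc4, Dnajc14, Dnajc18, Dnajc21 and Dnajc25, had log2 differences of -0.20 to 0.38, and none was called.

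Below the filter stood 17 genes, among them 3 Hsp70 genes, 5 small heat shock proteins and Dnaja4. The 2 that edgeR called were Hspa12a and Hspa12b, distant relatives of Hsp70, of which Hspa12b is known from endothelial cells. Hspa12a had values of 1.17, 0.711, 0.991 and 1.43 in WT, or 190 to 376 reads, and of 0.178, 0.380 and 0.140 in Ngfr KO, or 35 to 112 reads. The groups were clearly apart. On the recovered reads the log2 difference was -2.12 (SE 0.45, edgeR adjusted p = 0.0143), and the means gave a 4.63-fold lower value in Ngfr KO. Without Ngfr KO replicate 1 the edgeR adjusted p was 0.0612.

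Hspa12b had values of 1.25, 0.797, 0.361 and 1.20 in WT and 0.254, 0.187 and 0.204 in Ngfr KO. WT replicate 3 lay much closer to the Ngfr KO samples than the other WT samples did. Its log2 difference was -1.998 (SE 0.47, edgeR adjusted p = 0.0197), and the call was lost in edgeR without WT replicate 1 or without any 1 of the Ngfr KO replicates (0.0513 to 0.0784). The endothelial markers fell as well, with a median log2 difference of -1.62 in edgeR and -1.46 in limma. Their part in the values of both genes was not tested.

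In the other low genes edgeR called nothing. Dnajc12, a J-domain protein of the aromatic amino acid hydroxylases, had values of 0.381, 0.299, 0.230 and 0.675 in WT and 0.990, 0.797 and 0.929 in Ngfr KO. All Ngfr KO samples were higher, and the log2 difference was 1.25 (SE 0.40, edgeR adjusted p = 0.0601). Dnajb3 and Hspa2 were lower in every Ngfr KO sample, with log2 differences of -1.53 and -0.68 (edgeR adjusted p = 0.132 and 0.316). Dnajb13 was higher in every Ngfr KO sample but had at most 24 reads in any sample. Its edgeR log2 difference was 2.74 (SE 1.17, adjusted p = 0.137), and limma with no filter called it (0.08 on the log2(value + 1) scale, adjusted p = 0.0294). Hspb7 had at most 3 reads and Hspb9 at most 18, and neither entered the edgeR test. The remaining Dnaja4, Dnajb5, Dnajc16, Dnajc17, Dnajc27, Dnajc28, Hspb2, Hspb6 and Hspb8 overlapped between genotypes, with edgeR adjusted p of 0.424 or more.

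Genes that work with these chaperones were counted in lists, and no list was tested against the other genes, of which limma called 18.3% higher and 15.8% lower, 34.2% in all. Of 23 tested genes of ER folding and the unfolded protein response, 12 were called higher and 0 lower (52.2%), with a median log2 difference of 0.53 against 0.02 for all genes tested. The disulfide isomerase Pdia4 had values of 2.49, 2.99, 5.89 and 5.52 in WT and 10.6, 14.4 and 10.4 in Ngfr KO, without overlap. It rose by 1.34 on the log2 scale, Herpud1, a membrane protein of ER-associated degradation, by 1.28, and Pdia3, the isomerase for glycoproteins, by 1.16 (limma adjusted p = 0.00218, 0.00214 and 0.00709). The transcription factor Xbp1, named after its values were seen, rose by 0.88 (0.00632). Atf4 and Atf6, the factors of the other branches and likewise named afterwards, had log2 differences of 0.06 and -0.18 and were not called. Ddit3, another gene of this list and also named afterwards, was among the 12 called higher. These are RNA levels, the activity of the factors was not measured, and differences between the branches were not tested. In this list too the FDC markers moved with genotype, and their part was not tested.

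Among 14 genes of the cytosolic chaperonin and its partner prefoldin, 7 were called higher and 0 lower (50%), with a median of 0.41. The 7 were all subunits of the chaperonin, which folds actin and tubulin. Cct5 had values of 8.69, 8.78, 11.3 and 11.6 in WT and 21.2, 23.4 and 19.4 in Ngfr KO, without overlap. The largest log2 differences were those of Cct5 at 1.02, Cct7 at 0.98 and Cct8 at 0.91 (limma adjusted p = 0.0016, 0.0016 and 0.00407). Cct6a was the only chaperonin subunit that was not called (0.25, adjusted p = 0.287), and it is named for that reason. No prefoldin subunit was called. Of the 14 genes, 10 had a positive log2 difference and 4 a negative one, down to -0.49, and these 4 were all prefoldin subunits. In 2 of the 4 the highest Ngfr KO value stayed under the lowest WT value. The limma adjusted p of the uncalled genes in this list was 0.0574 or more.

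Of 15 tested Hsp90 co-chaperones 5 were called higher and 1 lower (40%, near the 34.2% of all genes tested), with a median of 0.26. The largest positive differences were those of Fkbp4 at 0.68, Ahsa1 at 0.65, which stimulates the ATPase of Hsp90, and Trap1, the mitochondrial Hsp90, at 0.59. Fkbp5, a target of the glucocorticoid receptor, fell by 0.59 on the log2 scale (limma adjusted p = 0.0183). Of 14 Hsp70 partners 3 were called higher and 3 lower (42.9%, likewise near it), with a median of 0.29. Sil1, the exchange factor of Hspa5, was 0.74 higher, Hspbp1 0.66 and Grpel2, an exchange factor of mitochondrial Hsp70, 0.47. The 3 called lower were Bag6 at -0.48, St13 at -0.46 and Hscb, a J-domain protein of iron-sulfur cluster assembly outside the naming rule, at -0.38.

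Of 12 genes of mitochondrial quality control 5 were called higher and 1 lower (50%), with a median of 0.29 and the largest values for the protease subunits Clpx at 0.81 and Htra2 at 0.73. This list shares Trap1, Grpel1, Grpel2 and Hscb with those before. Of 5 tested small heat shock and AAA proteins outside the rule, Tor1a was called higher. None of the 7 tested regulators of the heat shock response was called by limma, 0 had an unadjusted p under 0.05, and edgeR called 0 of 10. The heat shock factor Hsf1 was below the filter, between 0.797 and 1.37 in WT and between 0.606 and 1.08 in Ngfr KO.

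**Figure D5:**
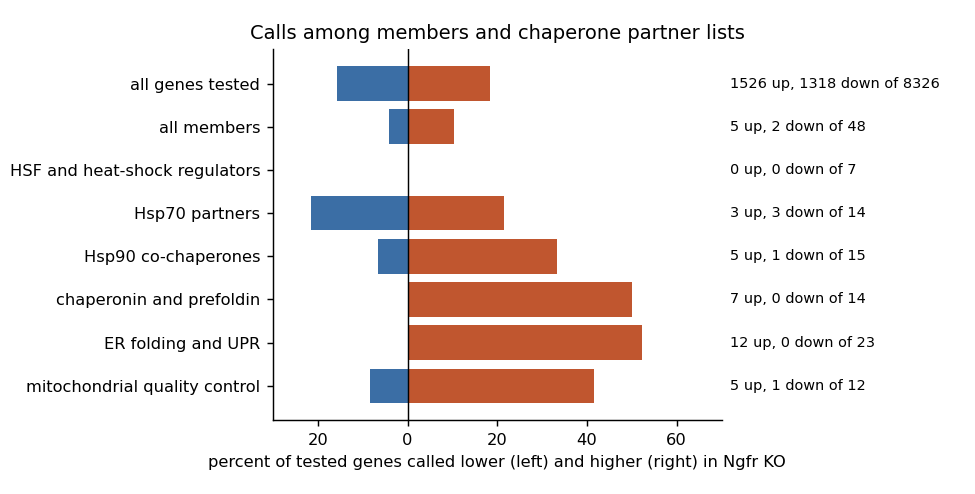
Percent of tested genes called lower (bars to the left) and higher (bars to the right) in Ngfr KO by limma, for all genes tested, for the 48 heat shock and J-domain genes and for 6 lists of partner genes, with counts at the right. The chaperonin and ER folding lists have 7 of 14 and 12 of 23 genes called higher and none lower, and the heat shock regulators have no call.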

How the data were processed

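The authors deposited 1 table of TMM-scaled signal per gene, with 1 column per sample. bcl2fastq 2.20.0.422 and the build mm10 are named in the submitters' processing notes. The aligner, the counting program, its strand setting and the TMM software are not given in the sources used here. SMART-Seq v4 and Nextera XT were used for cDNA and libraries, per the labels' protocols, and reads without molecular identifiers are not independent molecules. In every sample 100% of the deposited signal values were whole multiples, within 0.05 reads, of 1 step, which gave back the reads.

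The fit used limma 3.58.1 in R 4.3.3 (lmFit, eBayes with trend) on log2(value + 1), for genes that reached 1 in 3 or more samples, with Benjamini-Hochberg adjustment over 8326 genes and a threshold of 0.05. The pseudocount of 1 understates changes of low genes. edgeR 4.0.16 (quasi-likelihood, own TMM factors) on the recovered reads called 2551 of 16751 genes. Alternatives were quantile or median ratio scaling, a pseudocount of 0.1 or 5, no filter or a minimum of 10, robust eBayes, edgeR, a replicate block and each sample left out. Removal of the trend with gene length and GC content was added after the data were seen. Scripts were tested on simulated data.

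Coordinates came from GENCODE M21 (GRCm38), in which all 65 genes were found (58 of 21176 table identifiers were not), and promoters from RefSeq. Named genes are a list of chaperones, the called genes without overlap (up to 8 in each direction), and from each partner list up to 3 of these in each direction. Other genes were named after their values were seen. The genes and lists were chosen with earlier results of these data known. Protein sequences were not used here. Of the listed partner and marker genes, Ero1a, Ero1b, Cryaa and Fcgr1 were not analysed here.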

Additional observations from a re-analysis of the deposited data

Results flagged for a closer look

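In 5 of 39 named chaperone genes 1 of the 4 WT samples stood farther from the others than Dixon's test allows at 95%, where chance gives about 1 in 20, or 1.95 genes. WT replicate 4 was the sample in 3 of them. Its value was 5.08 for Dnajc1, with the other WT samples at 3.04 to 3.32, and 5.47 for Hspa13, with the others at 3.29 to 3.65. It was 5.45 for Dnajc15, below the others at 6.54 to 6.72. WT replicate 3 was low for Hspa9, at 5.44 against 6.30 to 6.37, and high for Hspb11, at 3.06 against 2.33 to 2.40. Without WT replicate 3, Hspb11 had a limma adjusted p of 0.0534.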

How the results depend on the processing

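The count of called genes moved most with a minimum value of 10, under which fewer genes (1297) were tested and 535 called in place of 2844, and 3 chaperone genes (3 higher, 0 lower) in place of 7. There 67.1% of calls were higher, against 53.7%. With no filter 1 chaperone gene was called lower, and with the length and GC trend removed 3 were called higher. Without 1 sample each, the fits called 1614 to 3006 genes and 3 to 8 chaperone genes, 2 to 8 higher and 0 to 2 lower; the cause was not tested.

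Across genes, deviations of same-numbered samples had r = 0.298 for replicates 1, -0.0593 for replicates 2 and -0.0108 for replicates 3. Since not every pair was above 0.1, the numbers of the titles were not taken as a pairing. The replicate block also takes WT replicate 4, which has no partner, out of the comparison. With it, limma called 2717 genes and 8 chaperone genes, 6 of them higher, with Hspa1a (0.74, adjusted p = 0.0270) and Hspb1 (1.01, 0.0103) added and Dnajc7 lost. Leaving out WT replicate 4 with no block gave the same log2 differences, with adjusted p of 0.0833 for Hspa1a, 0.0109 for Hspb1 and 0.0987 for Dnajc7.

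Among the 39 named chaperone genes, the log2 differences of 8 changed sign under an alternative, and none of the 8 was called on either side. Each of the values that follow compares with the one in the report, and the cause was not tested. Dnajb1 was 0.042 with a pseudocount of 5, 0.27 in edgeR and 0.18 with the block. Dnajb6 was -0.14 with quantile normalization, -0.024 with median ratio scaling, -0.0016 with a pseudocount of 5 and -0.14 with the length and GC trend removed. Dnajc1 was -0.030 with quantile normalization. The same length and GC trend removal gave 0.081 for Dnajc15, 0.074 for Dnajc6 and 0.10 for Hspa4. Hsp90ab1 was 0.043 and Hspa4 0.060 in edgeR, and the block gave 0.10 for Hsp90ab1 and 0.13 for Hspa1b. Without 1 sample each, the range was -0.47 to 0.60 for Dnajb1, -0.084 to 0.11 for Dnajb6, -0.036 to 0.16 for Dnajc1, -0.25 to 0.013 for Dnajc6, -0.11 to 0.10 for Hsp90ab1, -0.45 to 0.18 for Hspa1b and -0.15 to 0.068 for Hspa4.

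A value of 1 is 230 to 295 reads, so genes below the filter were read mainly from edgeR. As an alternative, limma with no filter called Hspa12a (adjusted p = 0.0272) and Dnajb13 (0.0294) among them and did not call Hspa12b (0.0751).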
